A study of Mus musculus with 13 samples.

Results

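The globin genes of the mouse and Alas2, the enzyme that starts haem synthesis in red cell precursors, were followed in cells taken from the brain at 4 ages. The set holds 8 genes, chosen by name as a gene family with earlier results of these data known, of the 37785 genes in the deposited count files. They are 3 embryonic globins (Hba-x, Hbb-y and Hbb-bh1), 4 adult globins (Hba-a1, Hba-a2, Hbb-bs and Hbb-bt) and Alas2. All 8 were present in the files and 7 passed the filter on low counts. Hbb-bh1 did not pass and is described by its counts alone.

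The samples were brain cells of wild-type C57BL/6 mice enriched on magnetic microbeads that bind Pdgfra, a surface receptor of oligodendrocyte precursor cells (OPCs). There were 3 libraries at embryonic day 16 (E16), 3 at postnatal day 12 (P12), 3 at P80 (labelled 80 or 81 days) and 4 at P310 (labelled with ages a few days short of that). No treatment is named, each library is numbered as a mouse of its own, and p-values measure the spread between these libraries. The P80 and P310 cell suspensions first passed myelin-removal beads, a step not given for E16 and P12, so that this step and age cannot be told apart in comparisons across that boundary. The labels do not say whether the brains were perfused to clear blood. Library totals ran from 8669521 to 25810455 counts, and transcripts of the mitochondrial genome took 1.52% to 34.4% of them, lowest in an E16 and highest in a P310 library. Of the P12 libraries, replicates 2 and 3 were so alike in their counts that they were summed as 1 sample, which leaves 12 samples with 2 at P12. The enriched cells were mixed: the summed level of 10 OPC marker genes averaged 104, 285, 163 and 174 in per-million counts (CPM) from E16 to P310, while 10 endothelial markers went from 59.3 CPM at E16 to 4588, 5273 and 5752 CPM.

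Haemoglobin carries oxygen in red blood cells as a tetramer of α-type and β-type chains around haem. In the mouse the first red cells, made in the yolk sac, use the embryonic chains ζ (Hba-x), εy (Hbb-y) and βh1 (Hbb-bh1), and the red cells made later in the fetal liver and the bone marrow use the adult α and β chains. This replacement is called globin switching. Young red cells in blood still hold globin RNA.

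The α-type genes lie on chromosome 11 of GRCm38 on the forward strand in the order Hba-x (chr11:32276400-32278116), Hba-a1 (chr11:32283511-32284465) and Hba-a2 (chr11:32296489-32297298). The β-type genes lie on chromosome 7 on the reverse strand. In the direction of transcription they follow as Hbb-y (chr7:103851749-103853216), Hbb-bh1 (chr7:103841637-103843164), Hbb-bs (chr7:103826534-103828096) and Hbb-bt (chr7:103812524-103813996). In both clusters the embryonic genes come first. Alas2 (chrX:150547375-150570638) lies on the forward strand of the X chromosome.

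How far the counts of near-identical globins can be separated depends on their sequence, so the first 90 coding bases of the GENCODE transcripts are shown. Capitals mark the bases that differ from Hbb-bs in the β-type genes and from Hba-a1 in the α-type genes.
Hbb-bs: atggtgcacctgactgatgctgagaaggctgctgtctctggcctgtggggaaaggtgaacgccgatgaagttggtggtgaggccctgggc
Hbb-bt: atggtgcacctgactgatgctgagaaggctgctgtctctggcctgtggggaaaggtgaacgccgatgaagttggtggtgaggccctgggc
Hbb-y: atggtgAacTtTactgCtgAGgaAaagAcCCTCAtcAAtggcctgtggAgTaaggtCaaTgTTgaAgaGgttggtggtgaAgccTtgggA
Hbb-bh1: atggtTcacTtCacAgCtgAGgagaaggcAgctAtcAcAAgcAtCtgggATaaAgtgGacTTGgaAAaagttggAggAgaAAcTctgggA
Hba-a1: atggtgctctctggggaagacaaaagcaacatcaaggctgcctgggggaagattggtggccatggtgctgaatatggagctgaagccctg
Hba-a2: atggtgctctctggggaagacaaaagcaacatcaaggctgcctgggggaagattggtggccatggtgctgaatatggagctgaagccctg
Hba-x: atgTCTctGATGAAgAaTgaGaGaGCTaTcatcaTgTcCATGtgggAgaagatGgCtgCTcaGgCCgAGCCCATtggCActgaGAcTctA

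Over their whole coding sequence of 441 bases Hbb-bs and Hbb-bt differed at 1 position, C417T counted from the first base of the start codon with the Hbb-bs base first. Hba-a1 and Hba-a2 differed at 1 of 426 positions, C381T with the Hba-a1 base first. The embryonic genes stood apart: Hbb-y differed from Hbb-bs at 113 of 441 bases, Hbb-bh1 at 115, and Hba-x from Hba-a1 at 163 of 426. Of all 100-base windows in the Hbb-bs transcript, 62.6% occurred unchanged in the Hbb-bt transcript, and 74.5% of those of Hba-a2 occurred in Hba-a1. No window of 50 bases was shared between an embryonic globin and any other of the 7 globins. The deposited counts include reads that map to several places, once at each place. Counts of Hba-a1 and Hba-a2, and of Hbb-bs and Hbb-bt, are therefore partly the same reads, whereas those of Hba-x, Hbb-y and Hbb-bh1 are not shared in this way by any full-length match of 50 bases.

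Because the embryonic and the adult genes differed in their course with age, the 110 bases before the transcription start given by RefSeq (GRCm38.p6) are shown for members of each kind. Capitals mark 4 short motifs searched on both strands. They are the globin promoter box CACCC, the box CCAAT, the core GATA of sites for the factors of that name, and ATATAA as a form of the TATA box.
Hba-x: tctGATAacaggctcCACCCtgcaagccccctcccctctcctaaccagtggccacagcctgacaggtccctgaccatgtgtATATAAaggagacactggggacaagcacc
Hba-a1: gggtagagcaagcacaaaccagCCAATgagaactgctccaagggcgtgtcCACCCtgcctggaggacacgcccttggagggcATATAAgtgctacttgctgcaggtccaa
Hbb-y: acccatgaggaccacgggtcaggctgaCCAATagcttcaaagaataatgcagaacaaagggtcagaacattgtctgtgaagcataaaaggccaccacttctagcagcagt
Hbb-bs: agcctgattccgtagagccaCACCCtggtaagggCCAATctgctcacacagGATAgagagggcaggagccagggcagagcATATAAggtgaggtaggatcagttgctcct
Hbb-bt: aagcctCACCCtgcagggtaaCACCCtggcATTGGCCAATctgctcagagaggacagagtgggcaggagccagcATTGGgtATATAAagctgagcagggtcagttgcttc
Alas2: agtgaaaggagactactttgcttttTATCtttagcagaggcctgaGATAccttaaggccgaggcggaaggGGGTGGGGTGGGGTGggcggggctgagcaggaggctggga

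These windows are chr11:32276490-32276599 (Hba-x), chr11:32283562-32283671 (Hba-a1), chr7:103853208-103853317 (Hbb-y), chr7:103827929-103828038 (Hbb-bs), chr7:103813924-103814033 (Hbb-bt) and chrX:150547307-150547416 (Alas2), each written in the direction of transcription. Of 8 members, 7 had an entry in the promoter table, and the window of Hba-a2 shared an unbroken run of 107 of 110 bases with that of Hba-a1. The Ensembl gene models used for counting reached into all 7 windows, since they begin further upstream than the RefSeq start. ATATAA occurred in the windows of Hba-x, Hba-a1, Hba-a2, Hbb-bs and Hbb-bt, beginning 28 to 31 bases before the start, and in 4.09% of all 32851 promoter windows of that length. CACCC was found in 29.6% of all windows, CCAAT in 20.2% and GATA in 27.3%. Hbb-bt held CACCC at 2 places, 104 and 89 bases before the start, and Hbb-bs held it at 1 place, 90 bases before the start. CCAAT reads as ATTGG on the opposite strand, and in Hbb-bt one such copy lies directly before the forward copy. The Hbb-y window held CCAAT alone among the 4 motifs in their exact letters. Other spellings of these boxes, and bases further upstream, were not searched. A match describes letters in this window and was not tested as a site.

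Hba-x and Hbb-y, the embryonic α-type and β-type chains, were present at E16 and near 0 at every later age. For Hba-x the 3 E16 samples held 16.9, 49.5 and 47.1 CPM, from 235, 821 and 800 counts. At P12 it held 0 and 0.0424 CPM, the latter from 2 counts, and all 3 P80 and all 4 P310 samples had 0 counts. The E16 samples thus lay far above all others, with replicate 1 the lowest among them. On pooled counts the E16 rate was 1237 times the P12 rate, with a 95% counting interval of 342 to 10223 around so few P12 counts. Against a floor of 3 counts over the group it was at least 483-fold higher at E16 than at P80 and at least 500.5-fold higher than at P310.

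Hbb-y held 14.7, 44.7 and 71.2 CPM in the E16 samples. At P12 it held 0.0622 and 0.275 CPM, and at P80 0.317, 0.123 and 0.208 CPM. At P310 the 4 samples held 0.132, 1.21, 1.69 and 1.61 CPM, from 1, 11, 19 and 19 counts. No later sample came near the lowest E16 sample, and 3 of the 4 P310 samples stood above every P12 and P80 sample. Pooled E16 rates were 205 times those of P12 (95% counting interval 122 to 376), 193 times those of P80 (101.5 to 423) and 36.0 times those of P310 (27.2 to 48.7). Such intervals cover counting error only.

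Hbb-bh1, the other embryonic β-type chain, had 0, 2 and 6 counts in the E16 samples and 0 counts in every later sample. At this depth it was barely detected at E16, and a difference between later ages was not detectable.

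**Figure D1:**
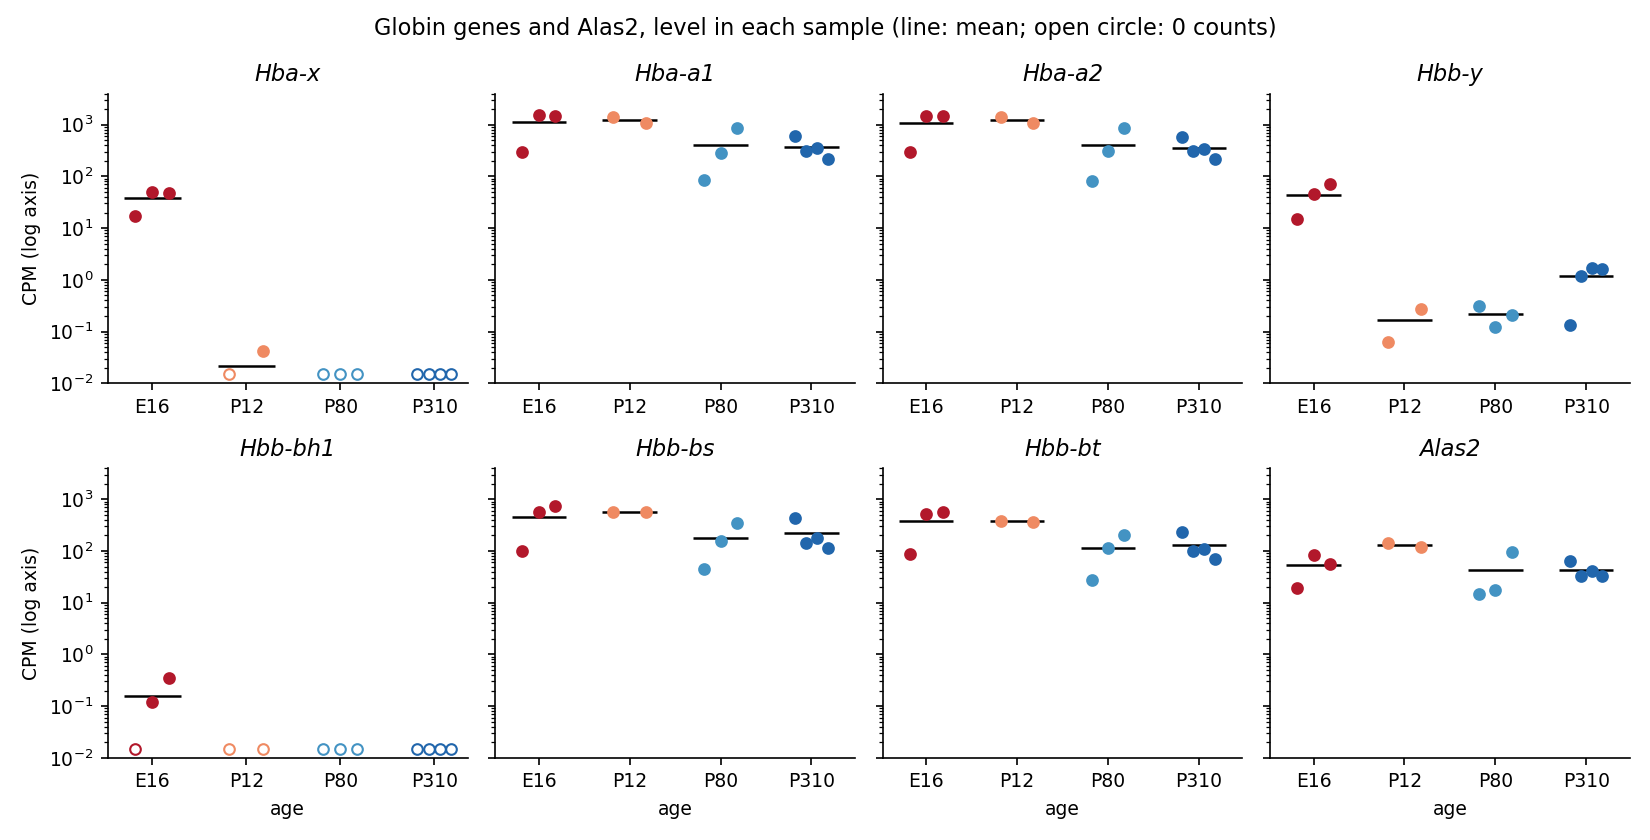
Level of each of the 8 genes in every sample, in CPM on a log axis, against age, with a horizontal line at the mean of each age. Open circles near the bottom mark samples with 0 counts. Hba-x and Hbb-y fall from E16 to P12 by more than the whole range of the E16 samples, the 4 adult globins overlap between E16 and P12, and both P12 samples of Alas2 lie above its E16 samples.

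For changes with age, edgeR's quasi-likelihood test was run on 21170 genes, and p-values were adjusted over all of them by Benjamini-Hochberg, with 0.05 as the threshold. From E16 to P12, 2 of the 7 tested members passed, both lower, where 27.2% of all genes tested passed, 16.7% higher and 10.5% lower. Hba-x fell by 9.96 on the log2 scale (SE 1.03, adjusted p = 6.19e-05) and Hbb-y fell by 7.74 (SE 1.02, adjusted p = 4.35e-05). Both were lower in all P12 samples than in any E16 sample. Hba-x, near 0 after E16, passed the filter on low counts by its E16 counts, so that a call could only be lower. Hbb-y, with 14 counts in all at P12 and 9 at P80, was near 0 there too. A call of it against E16 could thus also only be lower at these ages. With only P12 and P80 in the fit, 5 members were tested, without Hba-x and Hbb-y. Without the filter both were lower than at E16 with an adjusted p under 0.05 as well. The sizes rest on few P12 counts: without P12 replicate 2-3 they were -11.93 for Hba-x and -9.24 for Hbb-y, both still past the threshold.

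From E16 to P80, 2 of 7 passed, again both lower, beside 40.7% of all genes and 19.2% lower. Hbb-y fell by 7.52 on the log2 scale (SE 0.87, adjusted p = 7.78e-06 in edgeR), and Hba-x passed with an adjusted p of 1.31e-05. From E16 to P310, 2 of 7 passed, both lower, beside 43.1% of all genes and 20.1% lower. Hbb-y fell by 5.18 (SE 0.66, adjusted p = 1.75e-05 in edgeR) and Hba-x passed with an adjusted p of 5.42e-06. The fitted fold changes of Hba-x at P80 and P310 depend on the prior count, since all those samples are at 0. The 3 comparisons with E16 share the same E16 samples.

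Between P12 and P80 none of the 7 tested members passed, where 1.42% of all genes tested passed, 0.406% of all higher and 1.02% of all lower at P80; 0 members had an unadjusted p under 0.05 in edgeR, and DESeq2 called 0 with 5 at an unadjusted p under 0.05. Between P80 and P310 edgeR called none of the 7 and 0% of all genes. Hba-x, with 0 counts in all samples of both ages, could not be called there. From P12 to P80 it had only 2 counts, at P12. In the comparison of P310 with P80, 1162 genes had an unadjusted p under 0.05 in edgeR, and DESeq2 called 31 genes and 0 members. Of the members, Hbb-y came below 0.05 before adjustment and not after it (unadjusted 0.0111, adjusted p = 0.871 in edgeR). Its difference was 2.34 on the log2 scale (SE 0.80) with P310 higher, from 9 counts in all at P80 and 50 at P310. P310 replicate 1, with 1 count, lay within the range of the P80 samples. With only P80 and P310 in the fit, Hbb-y did not pass the filter on low counts.

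**Figure D2:**
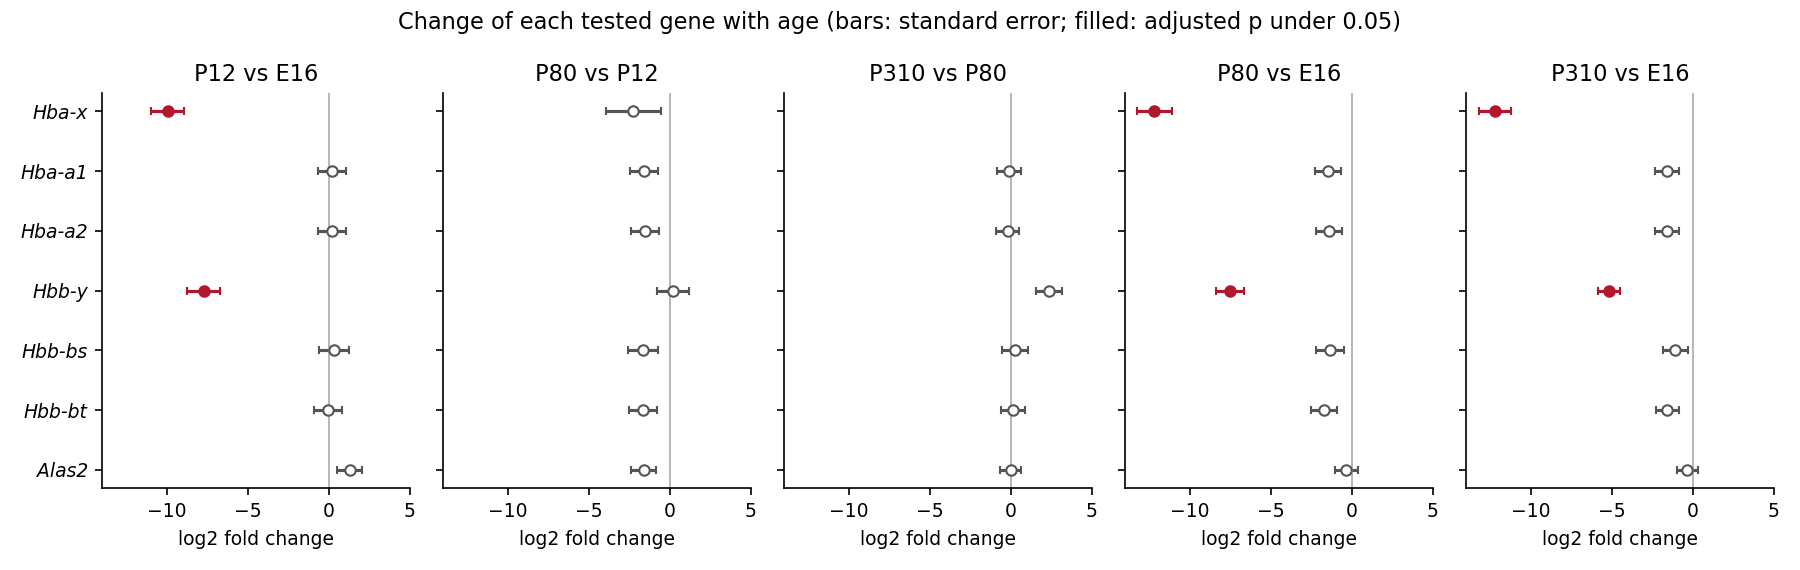
Log2 fold change of the 7 tested genes in 5 comparisons of age, with the later age over the earlier one, bars for the standard error, and filled red points for an adjusted p under 0.05. Only Hba-x and Hbb-y, in the 3 comparisons with E16, carry filled points. Hba-x has no point for P310 vs P80, since all samples of both ages are at 0.

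The adult globins, which make up the haemoglobin of fetal and adult red cells, were already the main globins at E16. Of the α-type counts, Hba-x made up 2.76%, 1.62% and 1.57% in the 3 E16 samples (1.98% ± 0.676, SD, n = 3). The exact 95% binomial interval of the first, 2.43% to 3.13%, did not reach the other shares. Such intervals take every count as a separate read, although reads common to Hba-a1 and Hba-a2 are counted for both. After birth the share was at most 0.00197% in any sample, and in P80 replicate 1, which had the fewest α-type counts (2654), the exact 95% interval around 0 reached 0.139%. Hba-x thus took the larger share in the E16 sample with the lowest globin level.

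Of the β-type counts, Hbb-y and Hbb-bh1 together made up 7.27%, 4.02% and 5.28% at E16 (5.52% ± 1.64, SD, n = 3). At P12 they made up 0.00654% and 0.0298%, and at P80 0.434%, 0.0460% and 0.0378%. At P310 they made up 0.0194%, 0.504%, 0.585% and 0.857% (0.491% ± 0.349, SD, n = 4). The E16 shares did not overlap with those of any later age, and the P80 and P310 shares overlapped with each other. In E16 counts Hbb-y stood at 0.868, 0.903 and 1.51 times Hba-x. If each adult pair is counted once, as the mean of its members' counts, the E16 shares become 3.88% of the α-type and 10.4% of the β-type counts.

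**Figure D3:**
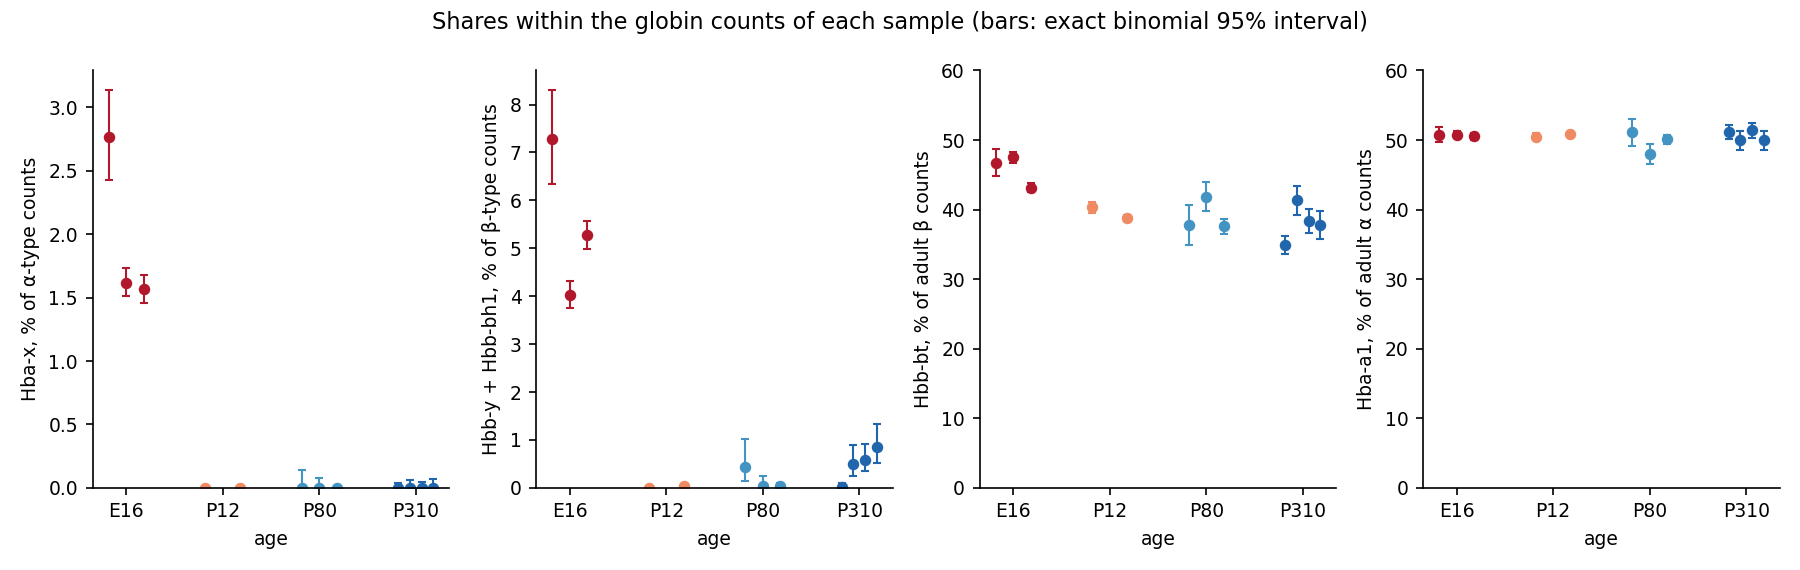
Shares within the globin counts of each sample in percent against age, each panel on its own axis, with exact binomial 95% intervals for counting error. The intervals take every count as a separate read, although the adult pairs share reads. Hba-x makes up 1.57% to 2.76% of the α-type counts at E16, the E16 share of Hbb-bt stands above all later samples, and the share of Hba-a1 stays between 48.0% and 51.4% in every sample.

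Hba-a1, an adult α chain, held 302, 1529 and 1496 CPM at E16 and 1405 and 1094 CPM at P12. At P80 it held 85.9, 285 and 848 CPM, and at P310 595, 311, 359 and 216 CPM. Its P12 samples lay inside the E16 range, and all P80 and P310 samples lay below the 2 P12 samples. How many of all genes separate these ages in this way was not counted. Hba-a2 followed it in every sample, with 293, 1481 and 1465 CPM at E16, 1377 and 1058 at P12, 82.1, 309 and 845 at P80, and 567, 312, 339.5 and 216 at P310. Hba-a1 made up 48.0% to 51.4% of the summed α counts in all 12 samples, a pair whose reads are largely counted for both genes.

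Hbb-bs, an adult β chain, held 99.6, 561 and 729 CPM at E16 and 567 and 566 CPM at P12. At P80 it held 45.3, 156 and 344 CPM, and at P310 442, 139.9, 177 and 116 CPM. Hbb-bt, its neighbour, held 87.4, 508 and 554 CPM at E16 and 383 and 359 CPM at P12. It held 27.4, 112 and 208 CPM at P80 and 238, 98.6, 110.3 and 70.5 CPM at P310. For both genes, which share reads, E16 replicate 1 lay below both P12 samples. P80 and P310 lay below the 2 P12 samples without overlap, again not set against all genes.

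The spread between samples of 1 age was wide for the adult globins. The highest sample exceeded the lowest 5.07-fold for Hba-a1 and 7.32-fold for Hbb-bs at E16, and 9.87-fold and 7.61-fold at P80. At P12 and P310 the same ratios were 1.28 and 2.75 for Hba-a1 and 1.001 and 3.81 for Hbb-bs. The sum of the 7 globins averaged 3116 ± 1997 CPM in the 3 E16 samples, 3405 ± 463 in the 2 of P12, 1116 ± 1026 in the 3 of P80 and 1078 ± 532 in the 4 of P310 (all SD). The lowest E16 sample, replicate 1 with 813 CPM, lay below 5 of the 7 samples of P80 and P310.

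None of the 4 adult globins passed in any of the 5 comparisons with edgeR, whose unadjusted p was above 0.05 for all of them. From E16 to P12 their median log2 change was 0.17, beside 0.09 over all genes tested, and from P12 to P80 it was -1.63, beside -0.03. For Hba-a1 the P80 to P12 difference was -1.62 (SE 0.87, adjusted p = 0.633) and for Hbb-bs it was -1.64 (SE 0.92, adjusted p = 0.664). Without P80 replicate 1 the Hba-a1 value was -1.14 and without P80 replicate 3 it was -2.69. From P80 to P310 the median was 0.01, beside 0.03, and without P80 replicate 3 the 4 values lay between 0.85 and 1.10, none past the threshold. The median from E16 to P310 was -1.58, beside 0.16. Hba-a1 differed by -1.58 (SE 0.73) and Hba-a2 by -1.59 (SE 0.73) between E16 and P310, with adjusted p of 0.109 and 0.107.

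These calls depend on the samples and the tool. Without E16 replicate 1, 3 adult globins passed from E16 to P310 (Hba-a1, Hba-a2 and Hbb-bt, adjusted p from 0.0351), beside 7376 of all 21085 genes tested. Without P80 replicate 1 Hba-a1 and Hba-a2 did, beside 8893 of 21013 genes. DESeq2 called Hba-a1, Hba-a2 and Hbb-bt, beside 10225 of 22926 genes. Without P80 replicate 3, the P80 sample with the most globin, Hba-a1, Hba-a2 and Alas2 passed as lower at P80 than at E16, and Alas2 as lower at P80 than at P12. There 7270 of 20911 genes passed from E16 to P80 and 151 from P12 to P80. Without a filter on low counts all 4 adult globins passed as lower in P80 against P12, P80 against E16 and P310 against E16. That setting called 877, 9085 and 9638 of 29980 genes in these comparisons. The main fit called 301, 8614 and 9133 of 21170. In bulk RNA, fewer red cells and less globin RNA per cell cannot be told apart.

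Per kb of the exon length given in the files, the E16 means were 1619 CPM per kb for Hba-a2 and 1366 for Hba-a1, followed by 603 for Hbb-bs and 545 for Hbb-bt. The E16 ranges of neighbours among these 4 overlapped. The order of Hba-a2 and Hba-a1, which share most reads, rests on their exon lengths of 667 and 812 bases. In CPM their means were 1080 and 1109 at E16, and 359 and 370 at P310. Hbb-y stood at 68.7 CPM per kb and Hba-x at 40.3, also with overlapping ranges, and the highest Hbb-y sample (112) lay below the lowest Hbb-bt sample (124). Alas2 had 22.3 and Hbb-bh1 0.258 CPM per kb. At P310 the order among the adult globins was the same, with 538, 456, 285 and 184 CPM per kb.

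The share of Hbb-bt in the adult β counts stood higher in the E16 samples than later, a difference that was not tested. Hbb-bt made up 46.75%, 47.5% and 43.2% of the adult β counts at E16 (45.8% ± 2.32, SD, n = 3). It made up 40.3% and 38.8% at P12, 37.7%, 41.85% and 37.6% at P80, and 34.95%, 41.3%, 38.3% and 37.8% at P310. All 3 E16 samples stood above all 9 later samples, whose range was 34.95% to 41.85%. Means at the later ages, 39.55%, 39.1% and 38.1%, differed by less than the spread between samples. Reads from stretches common to both genes count for each of them and draw the share toward equality, so the size of this difference in the transcripts themselves is not given by these counts. The adult α counts were 2.31 to 3.18 times the adult β counts at E16 and 1.71 to 3.07 times at later ages. The α-type share of all globin counts averaged 72.5%, 72.2%, 71.3% and 68.9% from E16 to P310, with ranges that overlapped at all ages.

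Alas2 makes the first intermediate of haem in red cell precursors. It held 19.6, 84.9 and 56.5 CPM at E16, 139.5 and 121 CPM at P12, 14.6, 17.7 and 95.3 CPM at P80, and 64.5, 32.5, 40.7 and 32.4 CPM at P310. Both P12 samples stood above every other sample. It passed in none of the 5 comparisons (edgeR, adjusted p = 0.257 for P12 against E16, log2 difference 1.28, SE 0.77). Without a filter on low counts it passed as higher at P12 than at E16, where 6527 of 29980 genes passed in either direction. Per 1000 adult globin counts there were 25.1, 20.8 and 13.3 Alas2 counts at E16, 37.4 and 39.4 at P12, 60.5, 20.5 and 42.4 at P80, and 35.0, 37.8, 41.3 and 52.3 at P310. All E16 samples lay below all P12 and P310 samples in this ratio, while P80 replicate 2 lay inside the E16 range. In the Alas2 annotation, 311 of 2403 exonic bases (12.9%) also belong to exons of Apex2 on the opposite strand. The counting did not use strand, so reads of that stretch cannot be assigned. Apex2 itself ranged from 9.05 to 23.5 CPM.

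The levels of the adult globins and Alas2 varied together across samples. Pearson's r of log2 CPM over the 12 samples was 0.999 between Hba-a1 and Hba-a2 and 0.985 between Hbb-bs and Hbb-bt, pairs that share reads. It was 0.972 between Hba-a1 and Hbb-bs, which share no window of 50 bases, and 0.878 between Hba-a1 and Alas2. Among those most like the adult globin sum over 12 samples, among tested genes averaging 1 CPM or more, were Mvk (r = 0.880), Alas2 (0.875), Rgs2 (0.820) and Gdf1 (0.815). Over the 9 postnatal samples they were Epb41 (0.967), Ofd1 (0.943), Alas2 (0.939), Tent5c (0.938) and Cmtm3 (0.933). For Alas2 itself the leading gene was Tent5c (0.885), followed by 3 adult globins and Gm20033 (0.853). Those most like the embryonic globin sum were Smarce1 (0.970), Hnrnpdl (0.968), Smarcb1 (0.964), Dbndd1 (0.963) and Sgta (0.962). For the embryonic sum the E16 and later samples form separate groups, so that this likeness rests on that step. All of these describe samples that also differ in depth and cell mixture, and none was tested.

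**Figure D4:**
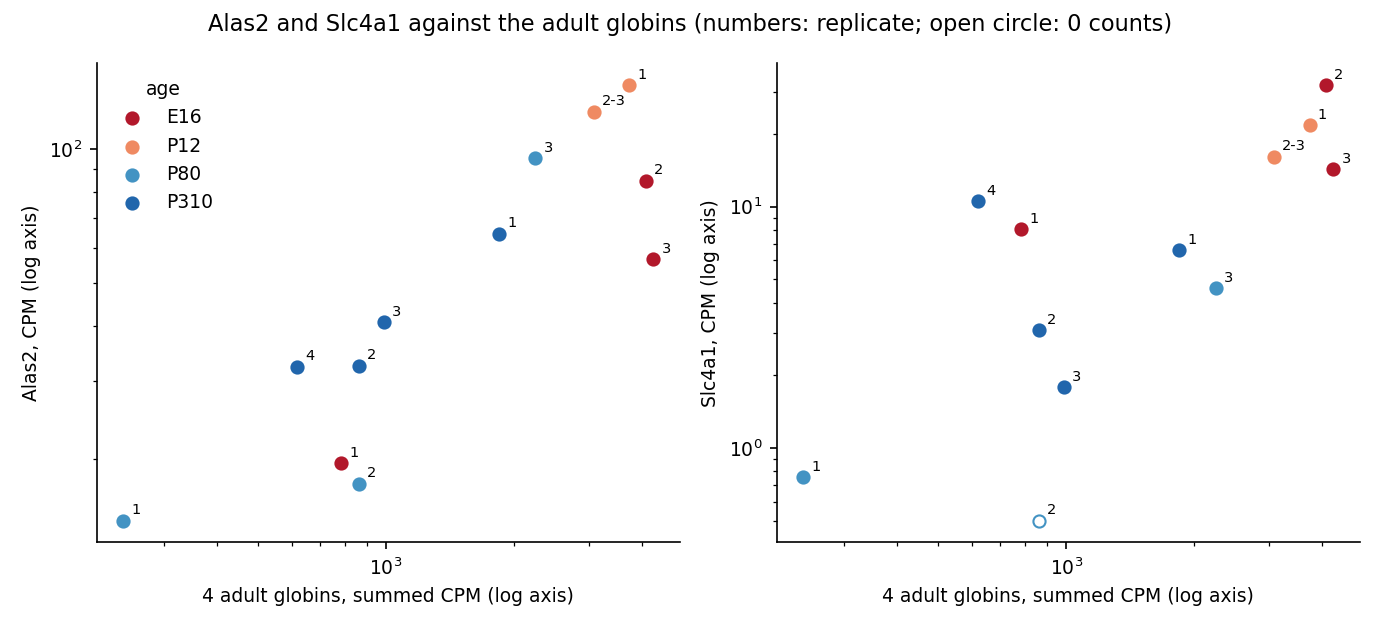
Alas2 (left) and Slc4a1 (right) in CPM against the summed CPM of the 4 adult globins, both on log axes, 1 point per sample, with the replicate number beside it and an open circle for a sample with 0 counts. Alas2 is higher where the adult globins are higher, and E16 replicates 2 and 3 lie below the P12 samples at a similar globin level. Slc4a1 is more scattered, with P310 replicate 4 high for its globin level.

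Other red cell genes were read from the same fit. Of a list of 23 genes of the red cell membrane and red cell maturation, 22 were found, 19 were tested, and from E16 to P12 1 rose and 2 fell, beside 16.7% of all genes higher and 10.5% lower. The list had a median log2 change of 0.06, beside 0.09 over all genes. Ube2l6, a ubiquitin-conjugating enzyme, rose by 1.15 (SE 0.38, adjusted p = 0.0350 in edgeR). Tmcc2 fell by 1.76 (adjusted p = 0.0118) and Epb41, a membrane skeleton protein also found outside red cells, fell by 0.79 (adjusted p = 0.0387). Without P12 replicate 1 none of the list passed, without P12 replicate 2-3 none of these 3 did, and with P12 replicates 2 and 3 kept apart 5 did.

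From E16 to P80, 2 of the 19 rose and 3 fell, beside 21.5% of all genes higher and 19.2% lower. Ube2l6 rose by 1.10 (adjusted p = 0.0208 in edgeR) and Sptb, the β-spectrin of red cells, by 1.06 (adjusted p = 0.0430). Epb41 fell by 1.27 (adjusted p = 0.000614), Add2, an adducin of the membrane skeleton, by 4.00 (adjusted p = 0.0221), and Slc4a1 fell as well. At E16 Add2 averaged 263 CPM and Slc4a1 18.1 CPM. The part of cells other than red cells in these changes was not tested. The adjusted p rose to 0.0848 for Ube2l6 without P80 replicate 3, to 0.186 for Sptb without P80 replicate 2 and to 0.0602 for Add2 without P80 replicate 2. From E16 to P310 Ube2l6 and Sptb rose and Epb41 and Add2 fell, beside 23.1% of all genes higher and 20.1% lower, and Ube2l6 had an adjusted p of 0.114 without E16 replicate 3.

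Slc4a1, the anion exchanger of the red cell membrane, held 8.05, 32.01 and 14.3 CPM at E16 and 21.8 and 16.1 CPM at P12. It held 0.760, 0 and 4.59 CPM at P80 and 6.59, 3.08, 1.78 and 10.5 CPM at P310. It was lower at P80 than at E16 by 3.29 on the log2 scale (SE 1.05, adjusted p = 0.0256 in edgeR). The adjusted p was 0.0849 without E16 replicate 2 and 0.0812 without P80 replicate 1. From P12 to P80 the difference was -3.35 (adjusted p = 0.257). Ahsp, the α chain chaperone, had no match by symbol and is not analysed here. A sum over 9 red cell markers averaged 27.2 CPM at E16, 27.4 at P12, 6.75 at P80 and 13.2 at P310, and ranged from 1.11 CPM, in P80 replicate 2 with 8 of 9 markers at 0, to 47.6 CPM in E16 replicate 2. A sum over 10 white blood cell and platelet markers took another course, with 11.02, 41.9, 72.4 and 125 CPM. The part of blood cells in the globin values was not tested.

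Of 14 genes of haem synthesis, all tested, 1 rose from E16 to P12 and none fell, beside 16.7% and 10.5% of all genes (median 0.09, beside 0.09 over all genes). It was Alas1, the form of the same first enzyme used outside the red cell lineage, which rose by 2.42 on the log2 scale (SE 0.25, adjusted p = 3.34e-06 in edgeR). Alas1 stayed higher than at E16 at P80 (2.68, adjusted p = 5.04e-07) and at P310 (2.42, adjusted p = 7.50e-07). Glrx5, which acts in iron-sulfur cluster assembly, was lower than at E16 at P80 (adjusted p = 0.00682) and at P310 (adjusted p = 0.0364, and 0.140 without E16 replicate 3). Fech, which inserts iron into protoporphyrin to form haem, had a log2 difference of 0.51 from E16 to P12 (adjusted p = 0.278).

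Of 13 genes that handle haem and iron, 3 rose and 2 fell from E16 to P12, beside 16.7% and 10.5% of all genes (median 0.61, beside 0.09). Tfrc, the transferrin receptor, rose by 4.14 (adjusted p = 2.44e-07 in edgeR). Slc40a1, the iron exporter, rose by 4.87 (adjusted p = 4.03e-06) and Slc48a1, a haem transporter, by 1.35 (adjusted p = 0.00873, and 0.108 without P12 replicate 1). Ftl1, the ferritin light chain, fell by 1.40 (adjusted p = 0.000729), and Ireb2, which binds iron-responsive elements, fell by 1.03 (adjusted p = 0.00586, and 0.0851 without P12 replicate 2-3). From P12 to P80 Tfrc fell by 2.20 (adjusted p = 0.00228), the 1 gene of this list that passed there. The 10 endothelial markers named above all rose from E16 to P12 as well, and the part of the cell mixture in these changes was not tested.

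Of 10 transcription factors and cofactors of the red cell lineage, 8 were tested, and 2 rose and 1 fell from E16 to P12, beside 16.7% and 10.5% of all genes (median 0.54, beside 0.09). Lmo2 rose by 4.27 (adjusted p = 8.46e-08 in edgeR) and Zfpm1 by 2.66 (adjusted p = 1.61e-06), both also expressed in endothelial cells or other blood lineages, and Ldb1 fell by 0.83 (adjusted p = 0.0176, and 0.186 without P12 replicate 1). Klf1, which activates the adult β genes in red cell precursors, was too low to be tested. It had 2, 1 and 8 counts at E16, 1 and 5 at P12, none at P80, and 15, 9, 7 and 0 at P310. Gata1, a master regulator of the red cell lineage, had 3, 3 and 0 counts at E16, 0 and 8 at P12, none at P80, and 9, 0, 10 and 25 at P310. From P80 to P310 its log2 difference of 7.06 (SE 2.39) had an adjusted p of 0.871.

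Of 15 genes named as regulators of globin switching or silencing, all tested, 2 rose and 7 fell from E16 to P12, beside 16.7% and 10.5% of all genes (median -1.27, beside 0.09). Zbtb7a, a repressor of fetal-stage globins, rose from 20.3, 26.9 and 20.4 CPM at E16 to 107 and 89.8 CPM at P12 (log2 change 2.13, SE 0.21, adjusted p = 3.07e-06 in edgeR). Mbd2, a reader of methylated DNA, rose by 1.80 (adjusted p = 0.000279). Bcl11a, a repressor of embryonic globins in red cells that is also made by neurons, fell from 452, 389 and 390.3 CPM at E16 to 6.15 and 22.3 CPM at P12 (log2 change -4.84, SE 0.90, adjusted p = 0.00224). Sox6, which acts with Bcl11a in red cells and also in neural precursors, fell by 2.08 (SE 0.30, adjusted p = 8.94e-05). Igf2bp1, an RNA-binding protein of fetal tissues, fell by 5.66 (adjusted p = 1.70e-05) and again from P12 to P80 by 4.05 (adjusted p = 0.0175, and above 0.05 without P12 replicate 1 or any 1 of the P80 samples, at most 0.129). Nfix, Nfia, Dnmt1 and Chd4 also fell from E16 to P12, Chd4 with an adjusted p of 0.0715 without P12 replicate 1. The 6 markers of immature neurons, summed, fell from 5960 CPM at E16 to 239 at P12, and their part in the level of these regulators was not tested.

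Among other globin-family genes, Hbq1a and Hbq1b, θ-type genes of the α cluster, had 1 and 4 counts in E16 replicate 2 and 2 and 8 counts in P12 replicate 2-3, and 0 in the other samples. Hbb-bh2 had 0 counts throughout. Cygb and Mb, the cytoglobin and myoglobin genes, were tested and passed in no comparison, with log2 differences of -1.35 (adjusted p = 0.283) and 1.59 (adjusted p = 0.627) from E16 to P12.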

How the data were processed

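Total RNA was prepared with a stranded low-input kit, per the labels' protocols. Per the submitters' processing notes, reads were trimmed with Trim Galore and aligned with TopHat2 2.1.1 to GRCm38 (mm10). Raw counts per gene were made by the authors with featureCounts 1.5.0-p1 on Ensembl release 92, per the file headers, which counted multi-mapping and overlapping reads at each feature, asked for 10 overlapping bases and set no strand. Symbols came from GENCODE M21 (37715 of 37785 genes).

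Here counts were tested with edgeR 4.0.16 (robust quasi-likelihood, trimmed-mean factors, filter by expression within age, 1 mean per age, 12 samples, Benjamini-Hochberg over 21170 genes). The biological coefficient of variation was 0.513. In simulated counts with 200 changed genes, P12 against E16, the fit recovered 62% of 4-fold and 95% of 32-fold changes, with 11 false calls. Changes of 4-fold or less can thus be missed. CPM use the same factors. Alternatives included DESeq2 1.42.0, other factors and filters, and leaving out each sample. Shares and sums over members are given without a test. The summed pair of P12 replicates had 2.33 as its chi-square over degrees of freedom, against 15.0 to 176 for other pairs. The members and gene lists were chosen with earlier results of these data known. Genes named are all members, those of each list that passed or led from E16 to P12, and a few regulators and red cell genes. A few genes that these rules would name are not reported here.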

Additional observations from a re-analysis of the deposited data

Results flagged for a closer look

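In 3 of 58 quantities checked for a sample that stands apart within P310, 1 sample lay far from the other 3 of its age; chance alone gives about 1 in 20. Hbb-bt made up 12.9% of all globin counts in P310 replicate 1, where the other P310 samples lay between 11.2% and 11.4%. Slc4a1 had 17.0 counts per 1000 adult globin counts in P310 replicate 4, where the others had 1.81 to 3.58. Fth1, the ferritin heavy chain, held 14104 CPM in P310 replicate 2, where the others held 225 to 339.9 CPM. Its call from E16 to P310 (log2 change 4.53, adjusted p = 0.0495 with edgeR) became 0.94 (adjusted p = 0.00957) without that sample, and its adjusted p rose above 0.05 without any 1 of the E16 samples.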

How the results depend on the processing

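Hba-x and Hbb-y passed as lower than at E16 in all 3 comparisons under each of the 21 alternatives, with the same sign in each. These alternatives reuse the same samples, so their agreement is not separate support. From P12 to P80, 0 members passed, 0 to 1 when a sample was left out and 5 without a filter on low counts. From P80 to P310, 0 passed, and 1 without the filter. From E16 to P80, 2 passed, 2 to 5 when a sample was left out, 6 without the filter and 3 with DESeq2. From E16 to P310, 2 passed, 2 to 5 when a sample was left out, 6 without the filter, 4 with only these ages and 5 with DESeq2. Without the filter 877, 423, 9085 and 9638 of 29980 genes passed in the same order. DESeq2 called 9755 and 10225 of 22926 genes from E16 to P80 and P310. The fit with only E16 and P310 called 8798 of 18596. The cause was not tested. The red cell list had 3 calls from E16 to P12, 5 with P12 replicates 2 and 3 kept apart, 5 with only these ages, and 0 to 3 when a sample was left out. Whether replicate numbers pair samples was not settled. Deviations of same-numbered samples correlated between -0.09 and 0.21, and differently numbered samples were not compared. A replicate block left 2, 0, 0, 2 and 2 members called in the 5 comparisons and 1 red cell gene. Counting each adult pair once, by construction, gave embryonic shares of 3.88% (α-type, E16), 10.4% (β-type, E16), 0.0363% (β-type, P12) and 0.976% (β-type, P310). It gave sums of 1703 CPM at P12 for the 7 globins and for the 4 adult ones, and 539.7 and 538.5 CPM at P310. Library totals without globins and mitochondrial genes gave 4033 CPM at P12 for both sums. An adult globin differed up to 10.3-fold between samples of 1 age (Hba-a2, P80), and P12 had 2 samples.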
